A study of Mus musculus with 9 samples.

Results

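The Wnt ligands, their receptors and the secreted proteins that modulate them were followed across 3 kinds of sorted mouse bone marrow endothelial cells. Members were taken by name from the gene table (Wnt, Fzd, Rspo, Dkk and Dkkl1, Sfrp, Lrp5 and Lrp6, Lgr4 to Lgr6, Axin, Lef1 and Tcf7 genes, Notum, Wif1, Znrf3, Rnf43 and Ctnnb1). The rule found 39 of the 17232 genes listed, whatever their level. In the GENCODE M21 annotation 58 protein-coding genes carry such names, and the other 19, among them Wnt3a, Wnt7a, Wnt7b and Fzd10, were not analysed here. RNA came from Nestin-GFP mice, which carry a green fluorescent protein reporter driven by Nestin regulatory sequence, and all 3 groups came from such mice. Nestin-GFPbright arterial endothelial cells (AECs) were sorted as CD45- Ter119- CD31+ PDPN- Sca-1bright cells with high reporter signal, and Nestin-GFPdim AECs as the same cells with low reporter signal. Sinusoidal endothelial cells (SECs) were sorted as CD45- Ter119- CD31+ PDPN+ Sca-1dim cells. Each group had 3 libraries, numbered 1, 3 and 4 in the labels, which give neither age nor sex. The study's methods give an age range for all its mice and state that both sexes were used. They count n in mice, but do not say whether a library pooled cells of several mice or whether groups shared mice.

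Wnt proteins are lipid-modified ligands that bind frizzled receptors on nearby cells. Together with the co-receptors Lrp5 or Lrp6 they stop the Axin-based destruction complex from removing β-catenin, which then acts with TCF/LEF factors on transcription. Other ligands, Wnt5a and Wnt5b among them, are best known for branches that act on cell polarity and calcium without β-catenin. R-spondins raise the amount of frizzled at the surface through Lgr receptors and the ligases Znrf3 and Rnf43. Dickkopf, Sfrp, Wif1 and Notum proteins are secreted and mostly dampen signalling. In endothelium the pathway is best known for its part in the growth and barrier function of brain and retinal vessels.

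The libraries held 13895090 to 73474534 reads in listed genes, with a median of 36719838, so that 1 read per kilobase of transcript stood for 0.0143 to 0.0710 RPKM (reads per kilobase of transcript, scaled to library size). The summed RPKM of 10 arterial marker genes was 368 to 1239 in Nestin-GFPbright AECs and 341 to 1781 in Nestin-GFPdim AECs, against 32.9 to 71.7 in SECs. That of 11 sinusoidal markers was 94.8 to 182 in Nestin-GFPbright AECs and 197 to 1289 in Nestin-GFPdim AECs, against 3829 to 6602 in SECs. Pdpn, the gene of the surface protein used to gate SECs, had 72, 0 and 0 reads in Nestin-GFPbright AECs and 2, 0 and 0 reads in Nestin-GFPdim AECs, against 15, 3 and 0 reads in SECs, so its RNA did not mark the gate. The highest sinusoidal sum in an AEC library, 1289, was in Nestin-GFPdim AEC replicate 3. Blood cell transcripts were present in all groups. The neutrophil list reached 297059 RPKM in Nestin-GFPbright AEC replicate 1, 207810 in Nestin-GFPdim AEC replicate 1 and 121506 in SEC replicate 1, while none of the other 6 libraries exceeded 56127. The erythroid list reached 33891 RPKM in Nestin-GFPdim AEC replicate 4. These libraries are named below beside the members that were high in them. In such bulk samples, fewer cells of a type and less RNA per cell cannot be told apart.

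Of the 39 members, 18 had a mean of at least 1 RPKM in at least 1 group, 8 reached 5 RPKM and 5 reached 10 RPKM. The other 21 stayed under 1 RPKM in every group. The 5 most abundant were Ctnnb1, Fzd4, Fzd6, Tcf7l1 and Dkk2, that is, β-catenin, a pair of frizzled receptors, a TCF factor and a secreted modulator. Only 2 of the 8 Wnt ligands listed, Wnt5b and Wnt2, reached a mean of 1 RPKM in any group, and 5 of the 8 frizzled genes did. The R-spondins were low throughout, with 0.427 RPKM as the highest value of their 3 genes in any library.

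**Figure D1:**
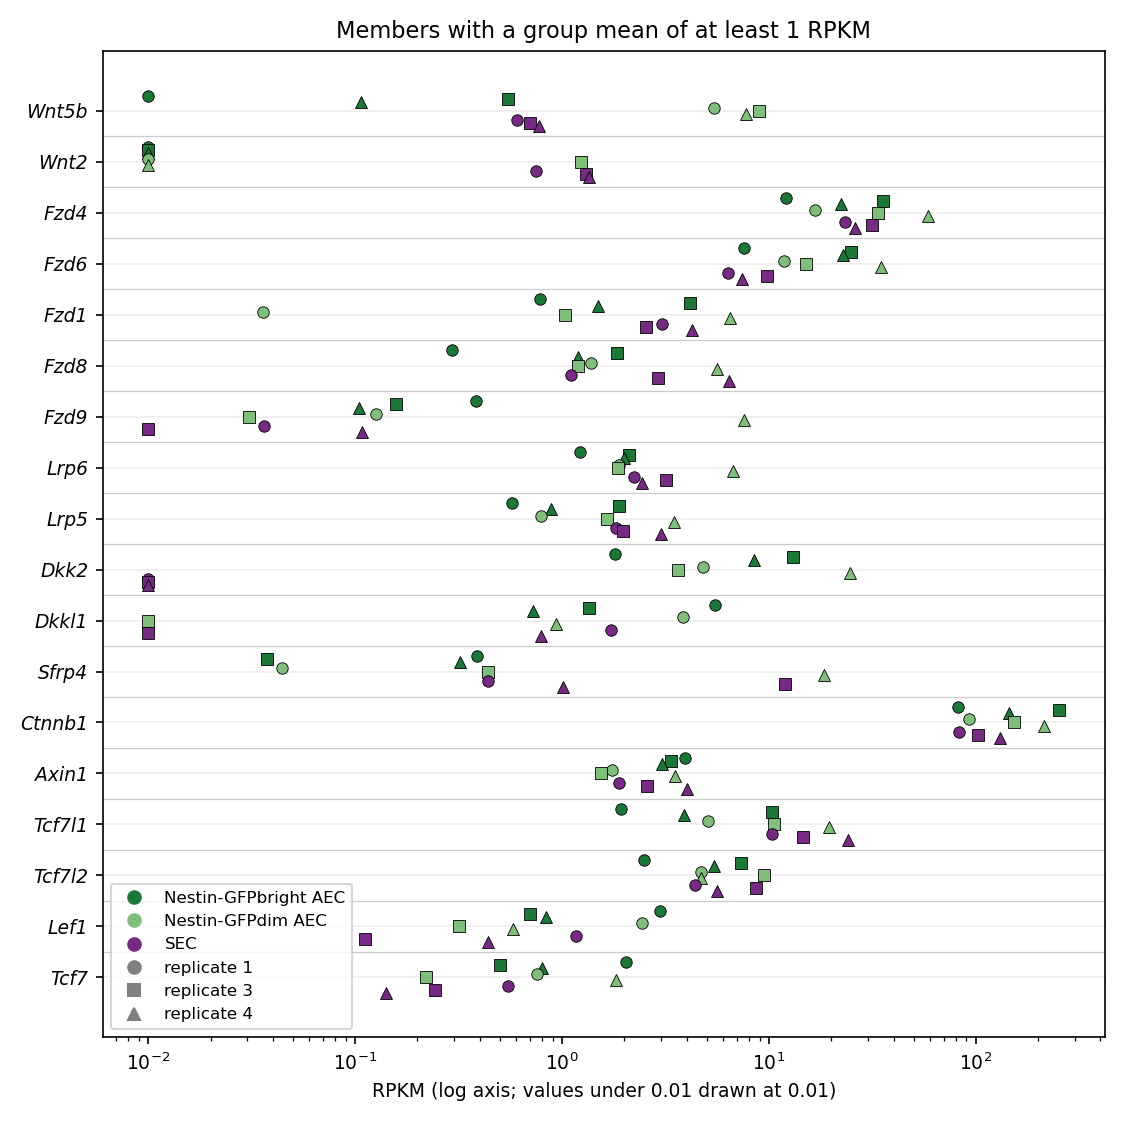
RPKM on a log axis of the 18 members with a group mean of at least 1 RPKM, ordered by role from ligands and receptors at the top through secreted modulators to β-catenin and its partners, with 1 point per library. The 3 groups lie mixed for most members. The clearest exceptions are Wnt5b and Dkk2. For Wnt5b the Nestin-GFPdim AEC points lie at 5.40 to 8.98 RPKM and all others at no more than 0.776. For Dkk2 the SEC points lie at the left edge. In Tcf7l1, Sfrp4, Lrp6 and Wnt2 all Nestin-GFPbright AEC points lie below the SEC points. In Fzd6 all Nestin-GFPdim AEC points lie above the SEC points.

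Wnt5b and Dkk2 were the members that passed a test, and Wnt2 was the ligand with reads mostly in SECs, so the sequences next to the start sites of these genes are given here. Wnt5b lies on the minus strand at chr6:119432531-119544347, Dkk2 on the plus strand at chr3:132085292-132180293 and Wnt2 on the minus strand at chr6:17988940-18030585 (GRCm38). RefSeq places 3 starts in Wnt5b, and a count per gene does not separate them. The windows hold the 250 bases before each start, 5′ to 3′ on the gene's strand, from RefSeq annotation of GRCm38.p6. Capitals mark the core of the sequence bound by TCF/LEF factors, CTTTGAT or its reverse complement ATCAAAG.
Wnt5b, chr6:119544348-119544597, minus strand: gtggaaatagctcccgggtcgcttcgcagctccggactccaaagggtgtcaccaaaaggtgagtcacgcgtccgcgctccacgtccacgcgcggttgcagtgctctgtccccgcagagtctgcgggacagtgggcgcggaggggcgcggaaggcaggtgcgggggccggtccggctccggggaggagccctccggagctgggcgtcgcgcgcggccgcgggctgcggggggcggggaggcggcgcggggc
Wnt5b, chr6:119467212-119467461, minus strand: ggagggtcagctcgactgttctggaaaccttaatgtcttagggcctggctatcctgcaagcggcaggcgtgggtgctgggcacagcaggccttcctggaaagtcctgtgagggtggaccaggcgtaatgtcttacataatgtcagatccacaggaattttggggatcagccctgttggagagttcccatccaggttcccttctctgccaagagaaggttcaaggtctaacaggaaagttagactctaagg
Wnt5b, chr6:119449387-119449636, minus strand: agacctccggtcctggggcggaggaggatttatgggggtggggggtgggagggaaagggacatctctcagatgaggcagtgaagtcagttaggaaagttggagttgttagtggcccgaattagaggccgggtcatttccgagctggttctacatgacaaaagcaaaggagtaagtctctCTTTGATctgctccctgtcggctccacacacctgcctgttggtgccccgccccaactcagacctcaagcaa
Dkk2, chr3:132085042-132085291, plus strand: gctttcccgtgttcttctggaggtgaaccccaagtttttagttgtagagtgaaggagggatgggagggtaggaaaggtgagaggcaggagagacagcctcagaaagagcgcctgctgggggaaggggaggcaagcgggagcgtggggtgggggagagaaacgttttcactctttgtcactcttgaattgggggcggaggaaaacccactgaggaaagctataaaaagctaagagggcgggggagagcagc
Wnt2, chr6:18030446-18030695, minus strand: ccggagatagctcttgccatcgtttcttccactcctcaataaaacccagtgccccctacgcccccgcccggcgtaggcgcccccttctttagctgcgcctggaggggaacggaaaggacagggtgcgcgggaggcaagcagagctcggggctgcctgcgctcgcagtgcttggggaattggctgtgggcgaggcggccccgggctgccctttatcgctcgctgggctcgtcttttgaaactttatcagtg
Windows were found for 23 of the 39 members, 33 windows in all, and 2 of these held the core. They were the innermost Wnt5b window, with the core beginning 71 bases before the start, and a Wnt11 window, 51 bases before the start. Among all 32851 windows of this length, 3.21% held the core on either strand. A match of 7 letters is a description of the sequence and not of binding.

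Wnt5b, a secreted ligand best known for the polarity and calcium branches, was the ligand with the highest level and the one that differed most between the AEC fractions. Its level was 0 (0 reads), 0.550 and 0.107 RPKM in Nestin-GFPbright AEC replicates 1, 3 and 4, and 5.40, 8.98 and 7.75 RPKM in Nestin-GFPdim AECs, against 0.608, 0.702 and 0.776 RPKM in SECs. The reads behind these values were 0, 49 and 6 in Nestin-GFPbright AECs, 202, 376 and 857 in Nestin-GFPdim AECs and 63, 130 and 102 in SECs. The 3 groups did not overlap, with Nestin-GFPdim AECs highest, SECs next and Nestin-GFPbright AECs lowest. Means were 0.220 ± 0.291 RPKM in Nestin-GFPbright AECs and 7.38 ± 1.82 RPKM in Nestin-GFPdim AECs, against 0.695 ± 0.0841 RPKM in SECs (SD, n = 3 each).

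Tests were made with limma on log2(RPKM + 1) over the 16364 genes that reached 0.1 RPKM in 3 or more libraries, and a member was called at an adjusted p (Benjamini-Hochberg, over all these genes) under 0.05. On this scale fold changes of low genes are understated. Of the 39 members, 33 passed the filter on low values. Against SECs, Wnt5b was called higher in Nestin-GFPdim AECs (log2 fold change 2.28, SE 0.26, adjusted p = 0.00542), where it was 1 of 33 members called, beside 1.95% of all genes tested (0.764% higher and 1.19% lower). This call was lost when voom, limma on log counts with precision weights, was fitted to the recovered reads (adjusted p = 0.0844), with 0.01 RPKM added in place of 1 (0.277) and on the deposited log2 values (0.545). It held in the other 19 alternatives, with each library left out in turn among them. In Nestin-GFPbright AECs against SECs the log2 fold change was -0.50 (SE 0.26, adjusted p = 0.453), and this difference did not pass the test. Between Nestin-GFPbright and Nestin-GFPdim AECs it was -2.78 (SE 0.26, adjusted p = 0.0525), just outside the threshold, and Wnt5b had the lowest p of all 16364 genes in that comparison. It was called there in 5 of 22 alternatives, one of which left out Nestin-GFPbright AEC replicate 3, the library with 49 reads (adjusted p = 0.0414). For both AEC fractions against SECs the log2 fold change was 0.89 (SE 0.23, adjusted p = 0.0648), a mean over fractions that lay on opposite sides of SECs. It passed without Nestin-GFPdim AEC replicate 1 (adjusted p = 0.0445), and its sign turned on the deposited log2 values (-0.16) and with voom (-0.11).

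**Figure D2:**
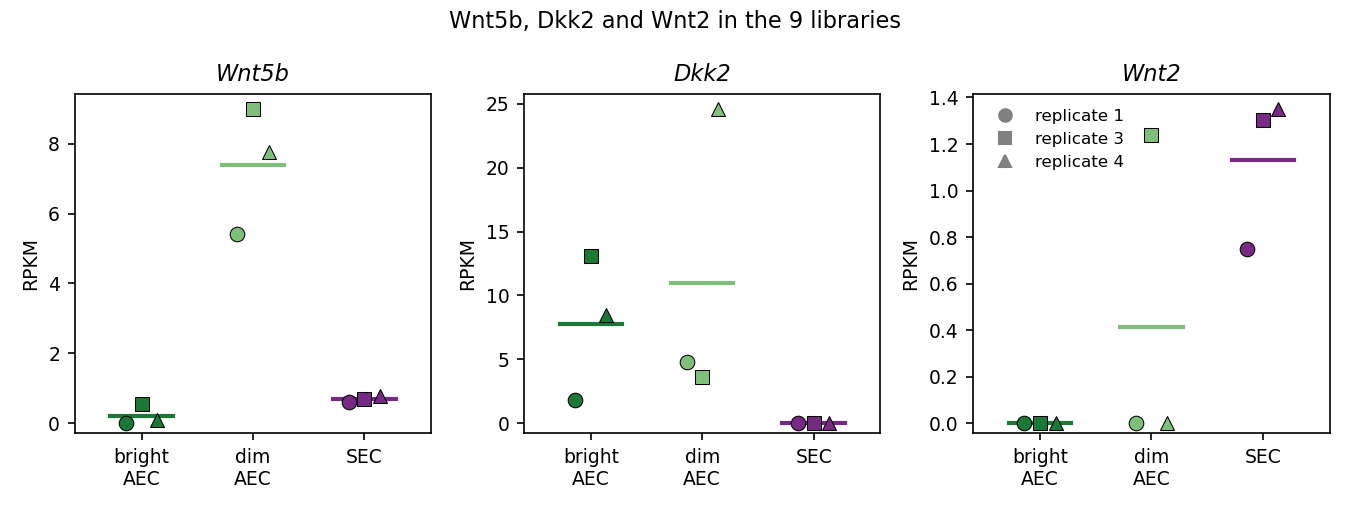
RPKM of Wnt5b, Dkk2 and Wnt2 in each library (symbols give the replicate number, bars the group mean, linear axes that differ between panels). Wnt5b is high in all 3 Nestin-GFPdim AEC libraries, Dkk2 has 0 reads in all 3 SEC libraries, and Wnt2 has reads in the 3 SEC libraries and in Nestin-GFPdim AEC replicate 3 only.

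Of 12 marker lists of cell types, 0 had their summed RPKM highest in all 3 Nestin-GFPdim AEC libraries, as Wnt5b had. The arterial sums overlapped between the AEC fractions, and the sinusoidal sums were highest in SECs. Between the fractions, 7 of 15 smooth muscle and pericyte genes had an unadjusted p under 0.05, beside 4.91% of all genes. Limma and voom called 0 of them, and also 0 of all genes tested. Rgs5, a pericyte marker, had 11.9, 37.7 and 86.9 RPKM in Nestin-GFPbright AECs and 0.423, 3.08 and 0.571 RPKM in Nestin-GFPdim AECs, against 0.0968, 0.447 and 0.178 RPKM in SECs. Kcnj8 ran the other way, with means of 12.2 RPKM in Nestin-GFPbright AECs and 134 RPKM in Nestin-GFPdim AECs, against 463 RPKM in SECs. The summed RPKM of the list, to which Kcnj8 gave the most in SECs, was 132 to 640 in Nestin-GFPbright AECs and 116 to 544 in Nestin-GFPdim AECs, against 465 to 912 in SECs. The part of mural cell transcripts in the Wnt5b values was not tested. The 5 tested genes whose values over the 9 libraries were most like those of Wnt5b were A830018L16Rik (Pearson r = 0.96), Chek2 (0.95), Klk8 (0.93), Lhx6 (0.92) and Gm24682 (0.92), given as a description over 9 libraries of 3 groups. Chek2, a kinase of the DNA damage response, averaged 9.23 RPKM in Nestin-GFPbright AECs and 18.2 RPKM in Nestin-GFPdim AECs, against 9.65 RPKM in SECs. Lhx6, a LIM homeobox factor, averaged 0.615 RPKM in Nestin-GFPbright AECs and 4.37 RPKM in Nestin-GFPdim AECs, against 1.58 RPKM in SECs. The Nestin-GFPdim AEC mean was the highest for each of these genes, which follows from choosing them by their likeness to Wnt5b.

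Within 250 kb of Wnt5b the table lists 7 other genes, of which 6 were tested, and the values of these 7 overlapped between Nestin-GFPbright and Nestin-GFPdim AECs. Fbxl14, an F-box gene inside the Wnt5b locus on the opposite strand, had 10.5, 5.55 and 2.33 RPKM in Nestin-GFPbright AECs and 7.48, 2.23 and 2.38 RPKM in Nestin-GFPdim AECs, against 4.94, 1.88 and 4.39 RPKM in SECs. These groups overlapped. Whether reads were counted by strand is not given in the sources used here, so where the loci overlap their reads cannot be told apart. Of the other neighbours, Lrtm2 was lower in AECs than in SECs (log2 fold change -0.99, SE 0.16, adjusted p = 0.01005), and so was the calcium channel subunit gene Cacna2d4 (-0.50, SE 0.11, adjusted p = 0.0314). Adipor2 ran the other way, with all AEC libraries (5.17 to 14.8 RPKM) above all SEC libraries (3.62 to 4.22 RPKM). Its difference did not pass (log2 fold change 1.03, SE 0.32, adjusted p = 0.133). The Lrtm2 call held in 17 of 21 alternatives and was lost without SEC replicate 3 (adjusted p = 0.0547), with 0.1 or 0.01 RPKM added and on the deposited log2 values (up to 0.267). The Cacna2d4 call held in 8 of 20 alternatives (adjusted p up to 0.191). It was lost without Nestin-GFPbright AEC replicate 3 or 4, Nestin-GFPdim AEC replicate 3 or 4, or SEC replicate 3 or 4 (0.0594 to 0.113).

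**Figure D3:**
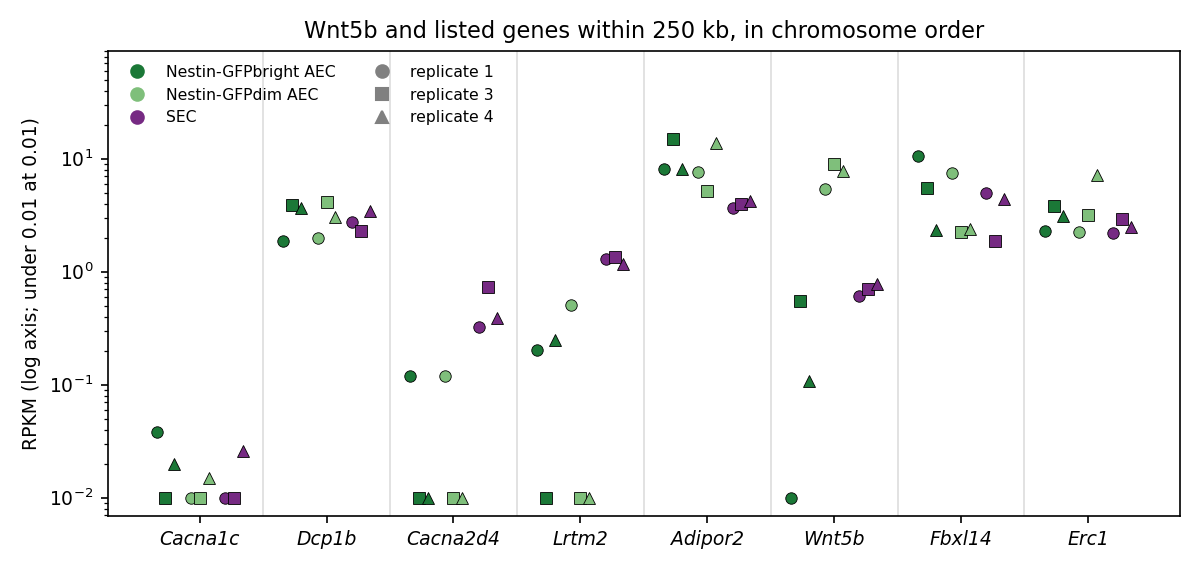
RPKM on a log axis of Wnt5b and the 7 other listed genes within 250 kb, in chromosome order, with 1 point per library (values under 0.01 at 0.01). Wnt5b is high in Nestin-GFPdim AECs, at 5.40 to 8.98 RPKM. Lrtm2 and Cacna2d4 are highest in SECs, and all AEC points of Adipor2 lie above its SEC points. The AEC points of the 7 other genes overlap between the fractions.

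Wnt2, a ligand that can act through β-catenin, had 0 reads in all 3 Nestin-GFPbright AEC libraries, 0, 44 and 0 reads in Nestin-GFPdim AEC replicates 1, 3 and 4, and 66, 205 and 151 reads in SECs. In RPKM it reached 1.24 in Nestin-GFPdim AEC replicate 3, against 0.749, 1.30 and 1.35 in the SEC libraries. Nestin-GFPbright AECs and SECs did not overlap, and in SECs the mean of 1.13 RPKM was at least 86.3-fold higher than 3 reads over the Nestin-GFPbright AEC group would give. The log2 fold change was -1.08 in Nestin-GFPbright AECs against SECs (SE 0.30, adjusted p = 0.0912), -0.69 in Nestin-GFPdim AECs against SECs (adjusted p = 0.443) and -0.88 in AECs against SECs (adjusted p = 0.111). It was called in 5 of 22, 1 of 22 and 3 of 21 alternatives of these comparisons. Without Nestin-GFPdim AEC replicate 3, Wnt2 was called lower in each of them (adjusted p = 0.00625, 0.0175 and 0.00378). The AEC libraries then left had 0 reads of Wnt2, so these calls follow from the choice of library. Nestin-GFPdim AEC replicate 3 was also the library with the highest sinusoidal marker sum among AECs. A pair of other low members, chosen after their values were seen, also had AEC reads mostly in this library. Rspo3, an R-spondin, had 0, 3 and 0 reads in Nestin-GFPbright AECs and 0, 16 and 0 in Nestin-GFPdim AECs, against 21, 21 and 15 in SECs. Notum, a secreted enzyme that inactivates Wnt proteins by removing their lipid, had 1 read in Nestin-GFPdim AEC replicate 3 and 0 in the other AEC libraries, against 6, 17 and 9 reads in SECs. That library had 0 reads of Rspo2 and Sfrp1, which SECs also held. The part of its sinusoidal transcripts in the Wnt2, Rspo3 and Notum reads was not tested.

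The 6 other ligands were low, with a mean under 1 RPKM in every group. Wnt9a had reads in all 9 libraries, at 0.0805 to 1.01 RPKM, and its groups overlapped. Wnt11, a ligand of the polarity branch, had 194 reads (1.28 RPKM) in Nestin-GFPdim AEC replicate 4 and 0 to 24 reads elsewhere. Wnt5a, the closest relative of Wnt5b, also had its highest value there, with 130 reads (0.400 RPKM). The next highest was Nestin-GFPbright AEC replicate 4, with 29 reads (0.172 RPKM). Wnt5a, Wnt11, Wnt2b and Wnt4 fell below the filter and were not tested. Wnt10a is described with the libraries numbered 1 below.

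Among receptors, Fzd4, the frizzled that serves the ligand norrin in retinal vessels, was the most abundant. It had 12.1, 35.4 and 22.4 RPKM in Nestin-GFPbright AECs and 16.7, 33.7 and 59.0 RPKM in Nestin-GFPdim AECs, against 23.2, 31.4 and 26.0 RPKM in SECs. The groups overlapped, and the log2 fold change of AECs against SECs was -0.02 (SE 0.42). Fzd6, a frizzled known for polarity of hair follicles, had 7.57, 25.01 and 22.7 RPKM in Nestin-GFPbright AECs and 11.8, 15.1 and 34.8 RPKM in Nestin-GFPdim AECs, against 6.32, 9.77 and 7.38 RPKM in SECs. All Nestin-GFPdim AEC libraries lay above all SEC libraries, while Nestin-GFPbright AEC replicate 1 lay among the SECs. The mean was 19.5 ± 9.94 RPKM in AECs (SD over 6 libraries), against 7.82 ± 1.77 RPKM in SECs (SD over 3). The log2 fold change was 1.08 (SE 0.44, adjusted p = 0.289), so this difference did not pass; only weights per library gave a call (adjusted p = 0.0242).

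The remaining receptors were lower and overlapped between AECs and SECs. Fzd1 averaged 2.14 ± 1.77 RPKM in Nestin-GFPbright AECs and 2.52 ± 3.48 RPKM in Nestin-GFPdim AECs, against 3.28 ± 0.887 RPKM in SECs (SD, n = 3 each). Fzd8 averaged 1.11 ± 0.779 RPKM in Nestin-GFPbright AECs and 2.73 ± 2.49 RPKM in Nestin-GFPdim AECs, against 3.48 ± 2.71 RPKM in SECs. In the AEC fractions the spreads of both genes were close to their means. The co-receptor Lrp6 averaged 1.77 ± 0.479 RPKM in Nestin-GFPbright AECs and 3.48 ± 2.78 RPKM in Nestin-GFPdim AECs, against 2.61 ± 0.502 RPKM in SECs. Its close relative Lrp5 averaged 1.11 ± 0.686 RPKM in Nestin-GFPbright AECs and 1.96 ± 1.36 RPKM in Nestin-GFPdim AECs, against 2.27 ± 0.644 RPKM in SECs. Neither co-receptor differed beyond its spread, with log2 fold changes of AECs against SECs of -0.12 (SE 0.35) for Lrp6 and -0.44 (SE 0.33) for Lrp5. Fzd9 rested on 1 library. It had 720 reads (7.54 RPKM) in Nestin-GFPdim AEC replicate 4 and 1 to 40 reads in each of the others.

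Dkk2, a secreted Dickkopf protein that binds the Lrp co-receptors, was the member with the clearest difference between AECs and SECs. It had 1.79, 13.1 and 8.48 RPKM in Nestin-GFPbright AECs and 4.80, 3.62 and 24.6 RPKM in Nestin-GFPdim AECs, against 0 reads in all 3 SEC libraries. The AEC values rested on 304, 1630 and 677 reads in Nestin-GFPbright AECs and 250, 211 and 3782 reads in Nestin-GFPdim AECs. All 6 AEC libraries lay above all SEC libraries, and the fractions overlapped with each other. The AEC mean of 9.39 ± 8.45 RPKM (SD, n = 6) was at least 1839-fold higher than 3 reads over the SEC group would give, and the lowest AEC library at least 351-fold. The 3 SEC libraries held 36719838 to 73474534 reads, no fewer than the median of all 9 libraries.

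Dkk2 was called higher in AECs than in SECs (log2 fold change 2.99, SE 0.65, adjusted p = 0.0354). It was the 1 member called of 33 tested, against a background of 4.93% of all genes. The call was lost without Nestin-GFPbright AEC replicate 3 (adjusted p = 0.0711), without Nestin-GFPbright AEC replicate 4 (0.0891), without SEC replicate 1 (0.116), 3 (0.144) or 4 (0.144), and with only the libraries numbered 3 and 4 (0.0638). Each AEC fraction on its own missed the threshold against SECs, with log2 fold changes of 2.85 in Nestin-GFPbright AECs (SE 0.75, adjusted p = 0.0751) and 3.14 in Nestin-GFPdim AECs (SE 0.75, adjusted p = 0.0873). In Nestin-GFPbright AECs against SECs, Dkk2 was called in 7 of 22 alternatives (limma adjusted p from 0.00232 to 0.237). For Nestin-GFPdim AECs against SECs it was called in 6 of 22 (0.00243 to 0.265). Among these, both passed without Nestin-GFPbright AEC replicate 1, the lowest AEC library (adjusted p = 0.0263 and 0.0457). Between the fractions the log2 fold change was -0.29 (SE 0.75), a difference well inside the spread of the libraries.

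Other secreted modulators were uneven between libraries of 1 group. Sfrp4, a secreted frizzled-related protein, had 0.388, 0.0377 and 0.320 RPKM in Nestin-GFPbright AECs and 0.0443, 0.437 and 18.5 RPKM in Nestin-GFPdim AECs, against 0.439, 11.97 and 1.01 RPKM in SECs. Its level thus rested on Nestin-GFPdim AEC replicate 4 and SEC replicate 3. The summed RPKM of 13 listed osteolineage and marrow stroma genes was 204 in that Nestin-GFPdim AEC library, 199 in Nestin-GFPbright AEC replicate 4 and 49.1 in SEC replicate 3, within an overall range of 28.04 to 204, and its part in Sfrp4 was not tested. Dkk3, a distant Dickkopf relative, averaged 0.247 ± 0.171 RPKM in AECs (SD over 6 libraries), against 0.956 ± 0.855 RPKM in SECs (SD over 3). The log2 fold change was -0.56 (SE 0.26, adjusted p = 0.382). Wif1, which binds Wnt proteins directly, had 83 reads in Nestin-GFPbright AEC replicate 3, 15 and 19 reads in SEC replicates 1 and 3, and 0 in the other 6 libraries. Sfrp1 and Notum did not pass the filter. Rspo2, another R-spondin, had 0, 1 and 0 reads in Nestin-GFPbright AECs and 0, 0 and 24 in Nestin-GFPdim AECs, against 21, 44 and 2 in SECs.

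Ctnnb1, which encodes β-catenin, was the most abundant member in every library. It had 82.4, 253 and 145 RPKM in Nestin-GFPbright AECs and 93.0, 153 and 213 RPKM in Nestin-GFPdim AECs, against 82.5, 103 and 131 RPKM in SECs. The groups overlapped and the log2 fold change of AECs against SECs was 0.48 (SE 0.39). β-catenin also sits at endothelial junctions, so its RNA is no measure of Wnt signalling. Axin1, the scaffold of the destruction complex, averaged 3.45 ± 0.449 RPKM in Nestin-GFPbright AECs and 2.26 ± 1.08 RPKM in Nestin-GFPdim AECs, against 2.83 ± 1.10 RPKM in SECs (SD, n = 3 each). Axin2, a scaffold that β-catenin signalling raises in many tissues, was at 0.0210 to 0.174 RPKM in all 9 libraries.

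Of the TCF/LEF factors, Tcf7l1, which acts mainly as a repressor, was the most abundant. It had 1.92, 10.3 and 3.89 RPKM in Nestin-GFPbright AECs and 5.07, 10.6 and 19.6 RPKM in Nestin-GFPdim AECs, against 10.4, 14.7 and 23.98 RPKM in SECs. All Nestin-GFPbright AEC libraries lay below all SEC libraries, and the Nestin-GFPdim AEC libraries overlapped both. The log2 fold change of Nestin-GFPbright AECs against SECs was -1.59 (SE 0.60, adjusted p = 0.232), which did not pass, and weights per library alone gave a call. Tcf7l2 had 2.50, 7.30 and 5.41 RPKM in Nestin-GFPbright AECs and 4.68, 9.42 and 4.67 RPKM in Nestin-GFPdim AECs, against 4.37, 8.67 and 5.61 RPKM in SECs. These groups overlapped, with a log2 fold change of AECs against SECs of -0.15 (SE 0.36). Tcf7, the factor best known from T cells, averaged 1.02 ± 0.733 RPKM in AECs (SD over 6 libraries), against 0.310 ± 0.211 RPKM in SECs (SD over 3), and did not pass (log2 fold change 0.56, SE 0.30, adjusted p = 0.492).

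Some members were highest in the libraries numbered 1, no more often than genes in general. In 5 of the 33 tested members (Dkkl1, Lef1, Lgr5, Rnf43 and Wnt10a) the library numbered 1 was the highest of each of the 3 groups, as in 17.8% of all genes tested. Lef1, the TCF/LEF factor of early lymphoid cells, had 2.96, 0.697 and 0.835 RPKM in Nestin-GFPbright AECs and 2.43, 0.316 and 0.578 RPKM in Nestin-GFPdim AECs, against 1.16, 0.111 and 0.438 RPKM in SECs. Lgr5, a receptor for R-spondins known from gut stem cells, had 441, 1 and 34 reads in Nestin-GFPbright AECs and 50, 0 and 0 in Nestin-GFPdim AECs, against 205, 8 and 45 in SECs. Wnt10a had 211, 8 and 2 reads in Nestin-GFPbright AECs and 18, 0 and 0 in Nestin-GFPdim AECs, against 35, 0 and 10 in SECs. In all 3 genes replicate 1 stood above both of the other libraries of its group. The summed RPKM of 12 B lymphoid marker genes was 2243, 117 and 208 in Nestin-GFPbright AECs and 1537, 70.0 and 39.2 in Nestin-GFPdim AECs, against 589, 10.3 and 270 in SECs. The T and NK cell list was also highest in the 3 libraries numbered 1, at 226, 200 and 139 RPKM, against 16.6 to 111 RPKM in the others. The pattern was not particular to lymphoid lists. The macrophage and monocyte list had 16282, 9774 and 6874 RPKM there, against 404 to 5026 RPKM in the others, and the neutrophil list was likewise highest there. In the erythroid list and the megakaryocyte and platelet list, Nestin-GFPdim AEC replicate 1 lay below replicate 4 (9213 against 33891 RPKM and 23.1 against 63.7 RPKM). Markers such as Vpreb1, Igll1, Rag1 and Cd3e were at 0 reads in at least 1 library. Not all genes of these lists followed the sums. Ebf1 of the B list had 15.3, 24.3 and 24.7 RPKM in Nestin-GFPbright AECs, and Lck of the T and NK list had 16.4, 21.9 and 13.4 RPKM in SECs. The part of blood cell transcripts in these members was not tested.

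**Figure D4:**
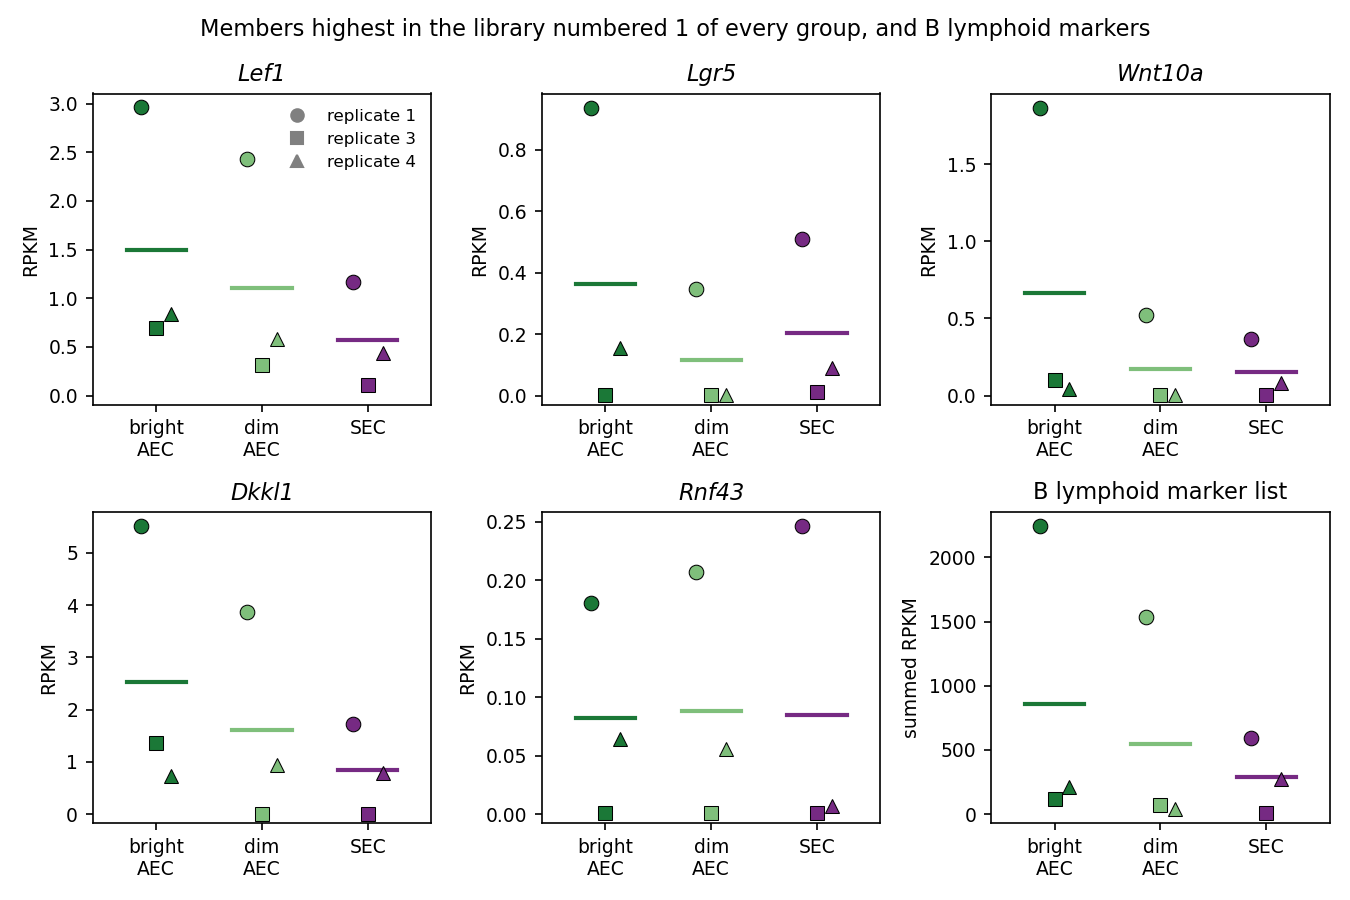
RPKM of Lef1, Lgr5, Wnt10a, Dkkl1 and Rnf43 and the summed RPKM of 12 B lymphoid marker genes in each library (symbols give the replicate number, bars the group mean). The circle, replicate 1, is the highest point of each group in all 6 panels, from 589 to 2243 summed RPKM for the B lymphoid list against at most 270 in the other libraries.

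Nestin-GFPdim AEC replicate 4 held the highest value of 10 of the 33 tested members (Dkk2, Fzd1, Fzd4, Fzd5, Fzd6, Fzd7, Fzd9, Lrp5, Lrp6 and Sfrp4), and of 15.6% of all genes tested. Of these 10, 6 are frizzled receptors and 2 are their co-receptors. It was also the library with the highest arterial sum (1781 RPKM) and the highest erythroid sum (33891 RPKM). Without it, limma still called Wnt5b, and no other member, in Nestin-GFPdim AECs against SECs. In Nestin-GFPbright AECs against SECs, Dkk2 was then called (adjusted p = 0.0313).

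Over the 33 tested members, in AECs against SECs, 1 member was called higher and 0 lower, beside 1.94% and 2.99% of all genes, and 4 had an unadjusted p under 0.05, beside 14.7%. All 6 AEC libraries lay above all SEC libraries in 1 member, beside 4.68% of all genes, and below them in 0, beside 5.77%. The median log2 fold change of the members was 0.004, against 0.0269 over all genes. In Nestin-GFPbright AECs against SECs, limma called 0 members, beside 4.58% of all genes (1.74% higher and 2.85% lower); 4 had an unadjusted p under 0.05, beside 14.9%, and voom called 1, Wnt2. The median was -0.06 for the members and 0.03 over all genes. The Nestin-GFPbright AEC values of 8 members lay wholly below those of SECs, beside 12.2% of all genes (Tcf7l1, Wnt5b, Sfrp4, Lrp6, Wnt2, Fzd7, Rspo3 and Rspo2), and 1 lay wholly above, Dkk2, beside 10.2%. In Nestin-GFPdim AECs against SECs, 3 members lay wholly above (Wnt5b, Dkk2 and Fzd6), beside 7.6% of all genes, and 0 wholly below, beside 9.39%. Between Nestin-GFPbright and Nestin-GFPdim AECs, 0 members were called by limma or voom, beside 0% of all genes; 1, Wnt5b, had an unadjusted p under 0.05, beside 4.91%. Wnt5b was also the 1 member whose Nestin-GFPbright AEC values all lay below its Nestin-GFPdim AEC values, beside 3.85% of all genes, and 0 lay wholly above, beside 3.62%. The comparisons with SECs share the same 3 SEC libraries.

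**Figure D5:**
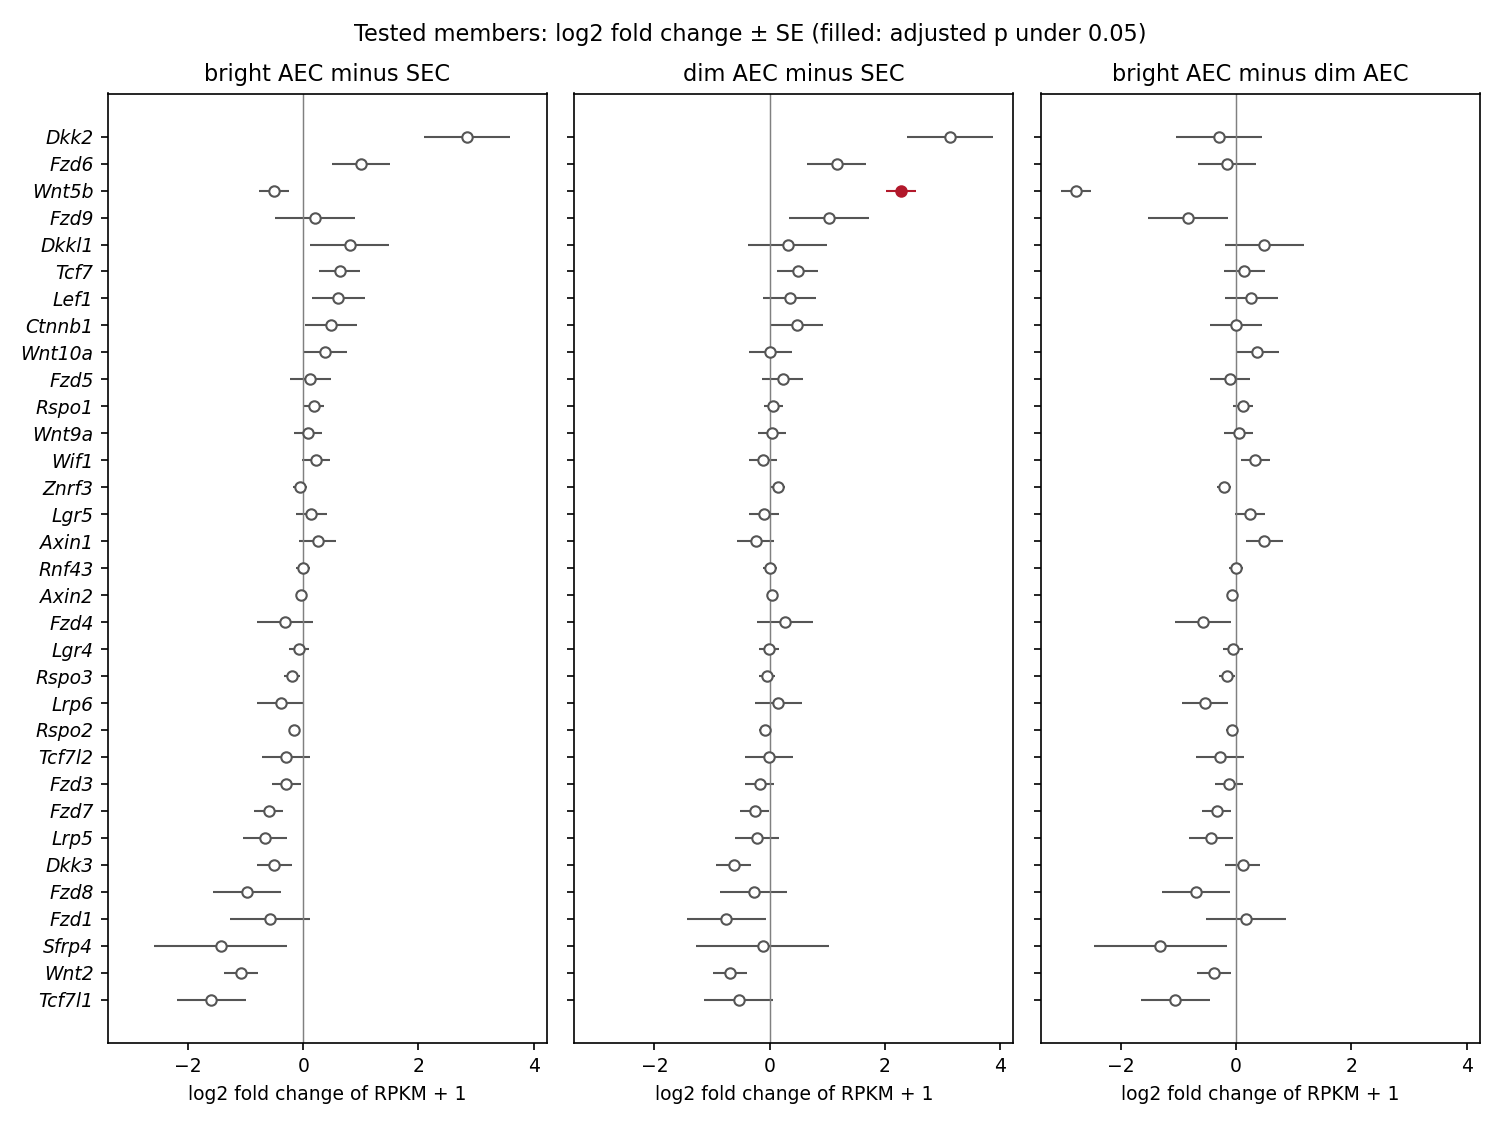
Log2 fold change of RPKM + 1 with its SE from limma for the 33 tested members, in Nestin-GFPbright AECs against SECs (left), Nestin-GFPdim AECs against SECs (middle) and Nestin-GFPbright against Nestin-GFPdim AECs (right), ordered by the change of AECs against SECs. The filled point, Wnt5b in Nestin-GFPdim AECs at 2.28, is the only one with an adjusted p under 0.05. Dkk2 lies at 2.85 and 3.14 in the comparisons with SECs.

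Other genes of the pathway were taken from 6 lists. Mcc, which the list places with secretion and co-receptor genes and whose protein is known to restrain β-catenin in colon cells, had 2.09, 8.22 and 8.73 RPKM in Nestin-GFPbright AECs and 4.73, 6.72 and 12.7 RPKM in Nestin-GFPdim AECs, against 0.140, 0.292 and 0.0724 RPKM in SECs. It was higher in AECs (log2 fold change 2.67, SE 0.43, adjusted p = 0.0103), and the call was lost without SEC replicate 4 (0.0626). Ptk7, a co-receptor of the polarity branch, had 0.544, 2.15 and 0.523 RPKM in Nestin-GFPbright AECs and 2.25, 5.28 and 3.19 RPKM in Nestin-GFPdim AECs, against 6.38, 6.95 and 8.25 RPKM in SECs. It was lower in AECs (log2 fold change -1.48, SE 0.32, adjusted p = 0.0371), but this call was lost in 12 of 21 alternatives, all 7 of those that left out a library other than Nestin-GFPbright AEC replicate 3 or Nestin-GFPdim AEC replicate 3 among them (adjusted p = 0.0559 to 0.178). Of 14 tested genes of this list, 1 was higher and 1 lower, beside 1.94% and 2.99% of all genes. Wls, the carrier that Wnt proteins need to reach the cell surface, averaged 42.2 ± 10.8 RPKM in AECs (SD over 6 libraries), against 71.9 ± 26.4 RPKM in SECs (SD over 3). The log2 fold change was -0.73 (SE 0.28, adjusted p = 0.2503). Porcn, the enzyme that attaches their lipid, averaged 3.32 ± 1.66 RPKM in AECs and 3.09 ± 0.712 RPKM in SECs. Tspan12, which assists Fzd4 in norrin signalling, averaged 81.1 ± 48.9 RPKM in AECs and 43.9 ± 19.1 RPKM in SECs and did not pass.

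Igfbp4, an IGF-binding protein that also binds frizzled and Lrp6 and dampens Wnt signalling, had 39.0, 101 and 43.2 RPKM in Nestin-GFPbright AECs and 117, 252 and 215 RPKM in Nestin-GFPdim AECs, against 355, 489 and 736 RPKM in SECs. The 3 groups did not overlap, with SECs highest and Nestin-GFPbright AECs lowest. It was lower in AECs (log2 fold change -2.30, SE 0.40, adjusted p = 0.0148), and the call was lost without SEC replicate 3 (0.0714) or 4 (0.0868). It was 1 of 4 tested antagonists outside the name rule, too few to set against the 4.93% of all genes called. In the polarity and calcium branch, 1 of 22 tested genes was higher and 0 were lower, near the shares of 1.94% and 2.99% over all genes. This was Prickle3, a cytoplasmic polarity protein, with 8.30 ± 2.20 RPKM in AECs (SD over 6 libraries), against 2.36 ± 0.542 RPKM in SECs (SD over 3; log2 fold change 1.45, SE 0.26, adjusted p = 0.0150). Its call was lost without SEC replicate 3 (0.0900) or 4 (0.0853) and with only the libraries numbered 3 and 4 (0.0643). In Nestin-GFPbright AECs against SECs, Camk2b, a calcium-dependent kinase gene of the same list, was also higher (log2 fold change 0.57, SE 0.12, adjusted p = 0.0347), with 0.668 ± 0.217 RPKM in Nestin-GFPbright AECs, against 0.119 ± 0.0815 RPKM in SECs (SD, n = 3 each).

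In AECs against SECs, limma and voom called 0 of 21 genes of the destruction complex and signal relay, and 0 had an unadjusted p under 0.05. They also called 0 of 17 nuclear partners of β-catenin (2 with an unadjusted p under 0.05) and 0 of 17 genes that β-catenin signalling raises in many tissues or in brain endothelium (1 with an unadjusted p under 0.05). Over all genes 4.93% were called by limma and 14.7% had an unadjusted p under 0.05, so that few calls would be found in lists of this size at the same shares. Of the last list, 6 of the 17 tested genes (Axin2, Znrf3, Rnf43, Lgr5, Lef1 and Tcf7) are members counted above. The median log2 fold changes of these 3 lists were -0.01, 0.23 and 0.11, against 0.0269 over all genes. Among the genes of the last list, Cldn5, the tight junction gene, averaged 359 ± 173 RPKM in AECs (SD over 6 libraries), against 566 ± 217 RPKM in SECs (SD over 3). The glucose transporter gene Slc2a1 averaged 30.0 ± 7.09 RPKM in AECs and 39.4 ± 10.9 RPKM in SECs. Myc, a growth regulator, averaged 36.2 ± 11.8 RPKM in AECs and 31.2 ± 7.72 RPKM in SECs. Sox17, an arterial transcription factor that is also among the arterial markers and the nuclear partners, averaged 35.2 ± 35.1 RPKM in AECs and 4.87 ± 5.35 RPKM in SECs (log2 fold change 2.48, SE 0.86, adjusted p = 0.192). None of these 4 differences passed the test, while the feedback genes Axin2, Znrf3 and Rnf43 averaged under 1 RPKM in each group. Between Nestin-GFPbright and Nestin-GFPdim AECs, limma and voom called 0 genes of all 6 lists, and also 0 of all genes tested.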

How the data were processed

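The authors sorted the cells, made cDNA with SMART-Seq v4 and Nextera XT libraries, sequenced single-end reads, aligned them with STAR and counted genes with htseq-count. They deposited log2 RPKM values per gene and library, scaled by the trimmed mean of M values and with a small prior count. The submitters' processing notes name mm9, but 99.88% of the listed genes found in GENCODE M21 overlap their GRCm38 positions. The study counts n in mice and gives 3 per group, without saying whether a library pooled mice.

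Values were returned to RPKM. Whole reads were recovered from 99.994% of values (within 0.0001 reads); the exceptions were all Bmx, left out of voom. Genes that reached 0.1 RPKM in 3 or more libraries were tested in limma 3.58.1 (R 4.3.3, with a trend) on log2(RPKM + 1), with all 9 libraries in 1 fit, and p-values adjusted over all 16364 genes. AECs against SECs took the mean of both AEC fractions. The script was tested on simulated data. Members, lists and tests were chosen with earlier results of these data known. Named genes are the members, called genes of the pathway lists with up to 4 of the most abundant others of a list, the 5 genes most like Wnt5b and its neighbours within 250 kb. Most members under 1 RPKM, Pdpn, Rgs5, Kcnj8 and Camk2b were singled out after their values were seen. Sequences are from RefSeq (GRCm38.p6). Alternatives changed the pseudocount, filter, scaling, test and libraries.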

Additional observations from a re-analysis of the deposited data

Results flagged for a closer look

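The AEC fractions lay on opposite sides of SECs in Wnt5b. All 3 Nestin-GFPbright AEC libraries (0 to 0.550 RPKM) lay below all 3 SEC libraries (0.608 to 0.776 RPKM), while all 3 Nestin-GFPdim AEC libraries (5.40 to 8.98 RPKM) lay above them. Against SECs, the Nestin-GFPdim AEC side passed the test (adjusted p = 0.00542) and the Nestin-GFPbright AEC side did not (-0.50, adjusted p = 0.453). The difference between the fractions, tested directly in limma as Nestin-GFPbright AECs against Nestin-GFPdim AECs, was -2.78 on the log2(RPKM + 1) scale (SE 0.26, adjusted p = 0.0525) and did not pass the threshold.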

How the results depend on the processing

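Counts of members called moved with the processing, each time by 1 to 4 genes. In AECs against SECs (1 called), the count was 2 without a trend, 4 with weights per library (Dkk2, Fzd6, Wnt2 and Wnt5b), 2 with voom, 0 with only the libraries numbered 3 and 4, and 0 to 2 when a library was left out. In Nestin-GFPbright AECs against SECs (0 called), it was 1 with 0.1 or 0.01 RPKM added, 1 on the deposited log2 values, 4 with weights, 1 with voom, 1 with only the groups compared, and 0 to 1 when a library was left out. In Nestin-GFPdim AECs against SECs (1 called), it was 2 with 0.1 RPKM added, 2 with weights, 0 with voom, and 1 to 2 when a library was left out. Between Nestin-GFPbright and Nestin-GFPdim AECs (0 called), it was 1, always Wnt5b, with a filter at 1 RPKM, without a trend and with weights, and 0 to 1 when a library was left out. Over all genes, weights raised the counts to 1717, 2065, 513 and 1, against 807, 750, 319 and 0 as reported, and voom gave 893, 781, 136 and 0. The sign of Wnt5b in AECs against SECs turned on the deposited log2 values (-0.16) and with voom (-0.11); the cause was not tested. The reported fit did not use the replicate numbers as pairs, and the labels do not say what a shared number stands for. Libraries numbered 1 deviated together (correlations of 0.708 to 0.784), and so did those numbered 3 (0.424 to 0.647). Those numbered 4 did so little or not at all (-0.212 to 0.155). Of the 9 libraries, 6 correlated best with their own number. With the replicate number as a block, the member counts were 2, 2, 2 and 1, against 1, 0, 1 and 0 as reported. The counts over all genes were then 1333, 1391, 644 and 3, against 807, 750, 319 and 0. Calls thus depended on whether the replicate numbers were in the fit, and the reason was not tested. Fits restricted to the groups compared do not exist for both AEC fractions together against SECs. Depth limits the lowest members: in the shallowest library 1 read per kilobase is worth 0.0710 RPKM. Values near that level rested on few reads there, and 6 members were not tested in the reported fit.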
